A study of Rattus norvegicus with 138 samples.

Results

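The miR-17-92 cluster and its paralogs were measured in rat serum by small RNA sequencing, and 10 of their mature products were chosen by name: miR-17-5p, miR-18a-5p, miR-19a-3p, miR-20a-5p, miR-19b-3p, miR-92a-3p, miR-106b-5p, miR-93-5p, miR-25-3p and miR-25-5p. All 10 were among the 471 miRNAs of the count table. Male Sprague-Dawley rats, 3 months old at surgery, carried 4 small pellets of 1 metal, 2 in the gastrocnemius muscle of each hind limb. The metals were Al (aluminium), Co (cobalt), Cu (copper), DU, Fe (iron), Ni (nickel), Pb (lead) and W (tungsten). Rats with tantalum (Ta), a metal chosen by the study as an inert surgical control, carried the same number of pellets, and no unoperated rats were analysed here. Serum taken after 1, 3, 6 or 12 months gave 35 groups of 3 or 4 libraries, 138 in all (Ni was measured at 1, 3 and 6 months). The labels do not say whether the same rats were sequenced at several months, so p-values measure the spread between libraries.

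The clusters are transcribed as single precursors that are cut into several hairpins, and each hairpin can give a mature strand from its 5p and from its 3p arm. Usually 1 arm is loaded into Argonaute and kept (the guide strand) and the other is degraded (the passenger strand). The family is known for driving proliferation: miR-17, miR-20a, miR-93 and miR-106b lower inhibitors of the cell cycle such as Cdkn1a. miR-92a-3p and miR-25-3p are abundant in red blood cells, so serum levels can also carry RNA from haemolysis.

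The 10 sequences are printed to show that they fall into 5 seed groups, where the seed is bases 2 to 8 from the 5′ end and is given in capitals. All 10 names were matched in RefSeq's mature miRNAs (build GRCr8). The first 4 share the seed AAAGUGC, miR-18a-5p has its own, the miR-19 pair shares GUGCAAA, miR-92a-3p and miR-25-3p share AUUGCAC, and miR-25-5p, the passenger strand of the miR-25 hairpin, shares its seed with no other of the 10.
miR-17-5p: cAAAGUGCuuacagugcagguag
miR-20a-5p: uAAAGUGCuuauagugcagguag
miR-93-5p: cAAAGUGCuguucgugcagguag
miR-106b-5p: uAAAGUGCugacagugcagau
miR-18a-5p: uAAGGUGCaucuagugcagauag
miR-19a-3p: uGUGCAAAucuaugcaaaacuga
miR-19b-3p: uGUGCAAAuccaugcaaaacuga
miR-92a-3p: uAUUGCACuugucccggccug
miR-25-3p: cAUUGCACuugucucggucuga
miR-25-5p: aGGCGGAGacacgggcaauugc

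miR-19a-3p and miR-19b-3p differ by a single base, U11C, counted from the 5′ end, and miR-17-5p and miR-20a-5p by C1U and C12U. Reads with an error at such a base can be counted under the other name. In GRCr8 the mature products of the miR-17-92 cluster lie at chr15:98587861-98588622 on the plus strand, from 6 hairpins. The miR-106a-363 cluster lies at chrX:137342788-137343637 on the minus strand, from 5 hairpins. The miR-106b-25 cluster lies at chr12:22156652-22157123 on the minus strand, from 3 hairpins, within the gene Mcm7, which encodes a subunit of the replicative helicase. The mature miR-17-5p, miR-19b-3p and miR-92a-3p are each encoded at 2 loci, 1 on chromosome 15 and 1 on chromosome X, so their counts cannot be split between the clusters.

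Of the 138 libraries, 6 held 518 to 12213 counts and were left out. They were 1 library each of Ta, Ni, Al and DU at 3 months, of W at 12 months and of Co at 1 month. The other 132 held 70454 to 6406599 counts (median 733618.5). Libraries at 3 months detected fewest miRNAs, with a median of 109 against 217, 170 and 189 at 1, 6 and 12 months, and 20 libraries detected under 100 miRNAs, 14 of them at 3 months and 6 at 6 months. The smallest count in the table above 0 is 2, so a 0 may stand for 0 or 1 read, and no fold is given against a single group at 0. Fitted differences that average over metals can include such groups. They then depend on the model and are no bound. The red-cell miRNA miR-451-5p had medians of 1672, 3121, 2221 and 1253 CPM (counts scaled to 1e6 per library, with TMM factors) at 1, 3, 6 and 12 months, and the serum miRNA miR-191a-5p had 255818, 35706, 185665 and 110331 CPM. Of the 5 red-cell names in the marker list, 4 were in the table. Their summed level had medians of 3909, 4439, 4325 and 2950 CPM at the 4 months. miR-144-5p had a median of 0 CPM at 3, 6 and 12 months.

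The 10 miRNAs held 1.27% of all counts and differed widely in level. miR-92a-3p was highest, at a median of 8711 CPM over the 132 libraries (range 0 to 30208), and was detected in 131 of them. miR-25-3p followed at 3054 CPM (0 to 11433, 131 libraries). These 2 miRNAs with the seed AUUGCAC made up a median of 92.0% of the counts of the 10. miR-92a-3p had more counts than miR-25-3p in 125 of 132 libraries, and miR-25-3p more than miR-20a-5p in 131.

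The other members lay lower and overlapped each other. miR-20a-5p had a median of 366 CPM (0 to 2608) and was detected in 120 libraries, and miR-25-5p had 205 CPM (0 to 1240) in 114. The latter were not cleanly ordered, with miR-20a-5p above miR-25-5p in 81 libraries and below it in 44. miR-17-5p had a median of 91.9 CPM (0 to 2765, 95 libraries) and miR-93-5p 34.8 CPM (0 to 660, 88 libraries). The last 4 were absent from most libraries: miR-19b-3p was detected in 42, miR-106b-5p in 36, miR-19a-3p in 20 and miR-18a-5p in 16 of 132, each with a median of 0 CPM.

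**Figure D1:**
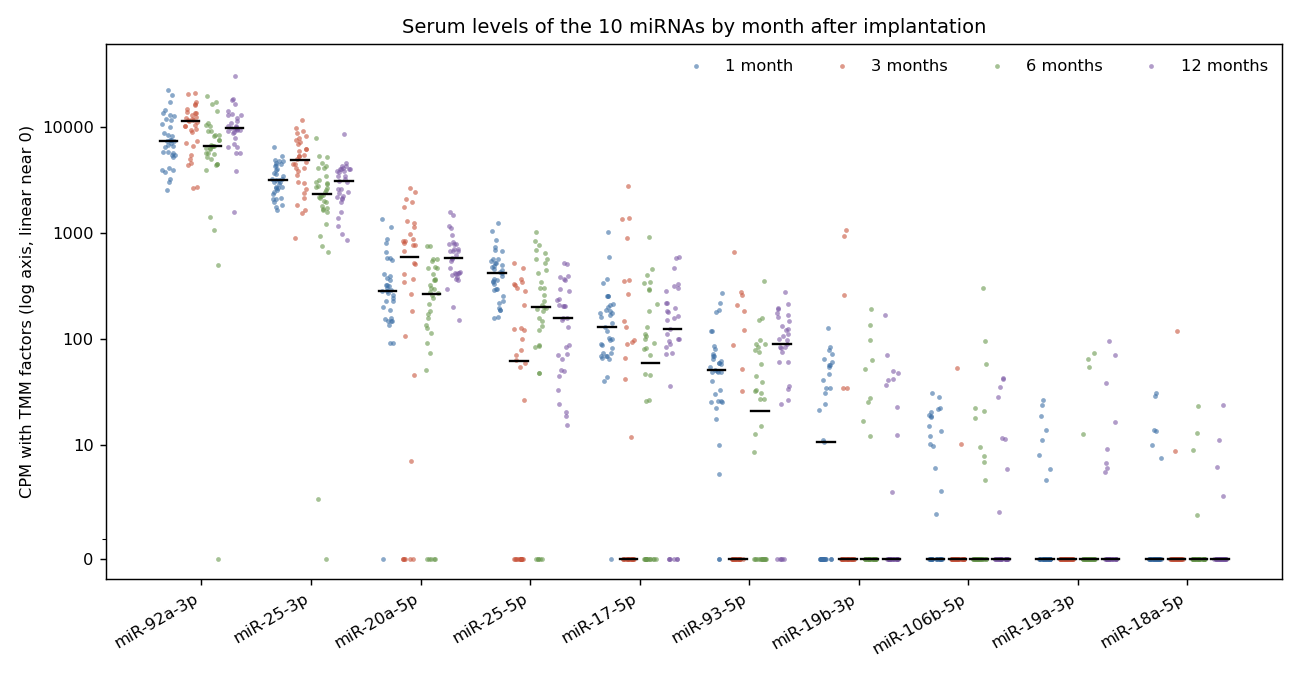
CPM of each of the 10 miRNAs in 132 libraries (1 point per library, log axis that is linear near 0), coloured by month, with the median of each month as a black bar. miR-92a-3p and miR-25-3p lie above the others at all 4 months, and the 4 miRNAs on the right sit at 0 in most libraries.

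Members of the same cluster differed in level. In miR-17-92, miR-92a-3p had 20 times the counts of miR-20a-5p (median ratio over the 120 libraries that detected both). miR-17-5p lay below miR-20a-5p in 112 of the 123 libraries that detected either. Both ratios include reads that the chromosome X copies of miR-92a-3p and miR-17-5p may have given. In the miR-106b-25 cluster, miR-93-5p lay below miR-25-3p in 131 libraries. The arm that prevailed also differed between its hairpins. miR-106b-3p had more counts than miR-106b-5p in 113 libraries and fewer in 2, with a median of 158 CPM and 113 detections. miR-93-5p lay above miR-93-3p in 74 libraries and below it in 23.

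Of the 21 other names listed from these clusters and their seed relatives, 14 were in the table. miR-106b-3p, miR-92b-3p (median 38.7 CPM, 108 libraries) and miR-363-3p (104.5 CPM, 106 libraries) were the ones detected in over 100 of 132 libraries. miR-20b-5p, which shares the seed AAAGUGC, was detected in 7 libraries, and miR-20a-3p and miR-92a-1-5p, the opposite arms of 2 of the members, in 3 and 2.

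Months after implantation are also the age of the rat, and the labels name no extraction or sequencing batch, so time, age and any batch by month cannot be told apart. Each comparison is the plain mean of the differences in 8 metals, Ta among them, leaving out Ni. Between 1 and 3 months miR-25-3p rose and miR-25-5p, miR-93-5p and miR-106b-5p fell. These are 4 of 10 members called at an adjusted p under 0.05 (edgeR quasi-likelihood test, Benjamini-Hochberg over 326 miRNAs), 1 higher and 3 lower. Of all miRNAs tested 43.3% were called in that comparison, 8.28% higher and 35% lower, so the members' share is near the background. Their median fitted difference was log2 -1.92, beside -1.69 over all miRNAs, both with fitted values of groups at 0 in them.

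Fitted differences of the 2 strands of the miR-25 hairpin had opposite signs at 3 against 1 and at 6 against 3 months. miR-25-3p, the guide strand, ran from 1624 to 6408 CPM at 1 month (median 3133, 35 libraries), from 890 to 11433 at 3 months (median 4802, 32 libraries), from 0 to 7739 at 6 months (median 2333, 34 libraries) and from 860 to 8449 at 12 months (median 3085, 31 libraries). The months overlap widely, with the highest median at 3 months. It was log2 0.76 ± 0.27 (SE) higher at 3 than at 1 month (adjusted p = 0.0171, edgeR) and log2 -1.03 ± 0.28 at 6 against 3 months (adjusted p = 0.00311, edgeR). The call of a rise by 3 months was kept in 11 of 21 alternative settings. It was not made with all libraries kept, without a low-count filter, in Ta alone, or without the libraries numbered 1, 3 or 4. Nor was it made without those of Al (log2 0.67), Pb (0.41) or DU (0.60). Without libraries that detected under 100 miRNAs neither call was made (log2 0.27 and -0.29). Here and below, that setting leaves out all Co libraries at 3 months and all Pb libraries at 6 months. Of Cu at 3 months it keeps only replicate 2. Its comparisons with those months therefore cannot cover the same metals, and it is no like-for-like check.

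miR-25-5p ran the other way. It was detected in all 35 libraries at 1 month (156 to 1240 CPM, median 417), in 19 of 32 at 3 months (0 to 514, median 61.2), in 29 of 34 at 6 months (0 to 1007, median 197) and in all 31 at 12 months (15.2 to 522, median 155). Its median with TMM factors was lower at 3 than at 1 month in each of 9 metals. In plain CPM, without these factors, the median was higher at 3 months in Ta (564 against 406) and Ni (414 against 228). It was lower in the other metals. The fitted difference at 3 months was log2 -3.66 ± 0.60 (adjusted p = 3.24e-07, edgeR), and a model with metal and month as separate terms, added after the data were seen, gave -1.91 ± 0.57 (adjusted p = 0.00288, edgeR). Without Co, whose 3-month libraries were all at 0, the first model gave -2.54. In the Ta libraries alone the fitted difference was log2 -0.41 (adjusted p = 0.879, edgeR). Without libraries that detected under 100 miRNAs it was -2.16 (adjusted p = 0.000555, edgeR).

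At 6 against 3 months 3 of 10 members were called, miR-25-5p higher (log2 3.01 ± 0.59, adjusted p = 3.93e-05, edgeR) and miR-25-3p and miR-20a-5p lower. For miR-25-5p the value was 1.77 without Co and 1.66 without libraries that detected under 100 miRNAs, both called, and 1.35 in the model with separate terms, which was not called (adjusted p = 0.0513, edgeR). The background was 19.3% of 326 miRNAs, 13.2% higher and 6.13% lower. At 12 against 1 month miR-25-5p was called alone, at log2 -1.82 ± 0.51 (adjusted p = 0.00786, edgeR), beside 10.1% of all miRNAs (2.76% higher and 7.36% lower). Without the libraries of Co it was -1.51 and not called. At 12 against 6 months miR-93-5p was called alone, beside 7.67% of all (6.44% higher and 1.23% lower).

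**Figure D2:**
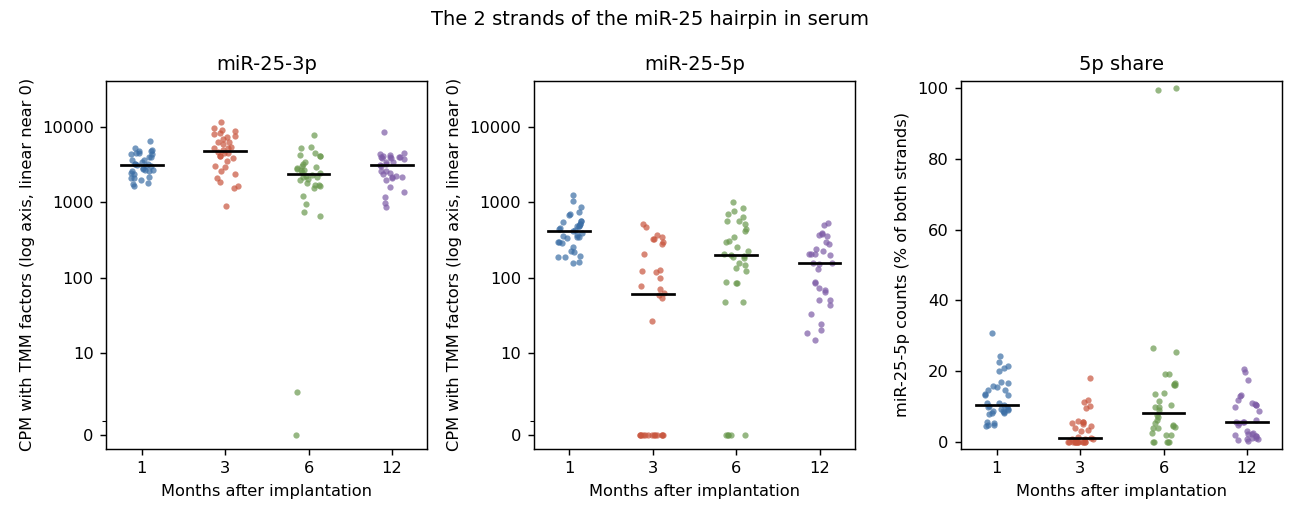
miR-25-3p and miR-25-5p in CPM (log axes that are linear near 0) and the share of miR-25-5p among the counts of both strands in percent, by month, with 1 point per library and the median as a black bar. At 3 months miR-25-3p has its highest median (4802 CPM) and miR-25-5p its lowest (61.2 CPM), and 13 of 32 libraries lie at 0 for miR-25-5p.

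Taking the share of miR-25-5p among the counts of both miR-25 strands removes the scaling between libraries. The share was 12.5% ± 6.19 (SD, n = 35) at 1 month, 3.37% ± 4.52 (n = 32) at 3 months, 14.3% ± 22.9 (n = 34) at 6 months and 6.74% ± 5.85 (n = 31) at 12 months. The test was chosen after these values were seen, as a two-sided permutation test over libraries with 100000 resamples, adjusted over 4 pairs of months. It pooled the libraries of all metals, Ni at 1, 3 and 6 months among them, unlike the edgeR comparisons of months, which leave out Ni. The difference in mean share at 3 against 1 month was -9.11 percentage points (p = 1e-05, the smallest these permutations can give, adjusted p = 4e-05). By the same permutation test it was -5.74 points at 12 against 1 month (p = 0.00029, adjusted p = 0.00044) and 10.9 points at 6 against 3 months (p = 0.00033, adjusted p = 0.00044). For 12 against 6 months it was -7.51 points (permutation p = 0.0647). Without libraries that detected under 100 miRNAs the difference of 10.9 points was 5.85 (permutation p = 0.00217). The highest shares at 6 months were 100% and 99.6%, in Pb replicates 3 and 4.

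Detection of the scarcer members also had its lowest point at 3 months. miR-93-5p was detected in 33 of 35, 9 of 32, 20 of 34 and 26 of 31 libraries at 1, 3, 6 and 12 months, with medians of 50.8, 0, 20.9 and 89.4 CPM. It was log2 -2.38 ± 0.82 at 3 against 1 month (adjusted p = 0.0119, edgeR), with Co and Fe at 0 at 3 months, and 2.41 ± 0.76 at 12 against 6 months (adjusted p = 0.0314, edgeR). The model with separate terms gave -0.40 ± 0.81 (adjusted p = 0.691, edgeR) and 1.56 ± 0.82 (adjusted p = 0.244, edgeR), and called neither. At 3 months miR-93-5p was at 0 in all libraries of Co and of Fe but at 87.9 to 660 CPM in the 3 libraries of DU, and in Ta alone the fitted difference was log2 0.47. Without libraries that detected under 100 miRNAs neither call of miR-93-5p was made (log2 -2.42 and 1.24). The earlier call was lost without Co (log2 -1.32) or Fe (-1.46), and the later one without Al (2.31) or Pb (1.40). miR-93-3p, from the other arm of that hairpin, passed in the same comparisons and directions (log2 -2.79, adjusted p = 0.0121, and log2 2.90, adjusted p = 0.0169, edgeR). However, miR-93-3p was detected in 27 of 35, 7 of 32, 12 of 34 and 21 of 31 libraries at the 4 months. Its median was 0 CPM at 3 and 6 months, and no alternative settings are given for it. It was the only one of 10 other products tested to pass in any of the 4 time comparisons. However, miR-32-5p, miR-17-2-3p, miR-17-1-3p, miR-18a-3p, miR-20b-5p and miR-92b-5p had no usable standard error in any of them and could not pass. The same held for miR-93-3p at 6 against 3 months.

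miR-106b-5p was detected in 16 of 35, 2 of 32, 10 of 34 and 8 of 31 libraries, and at 3 against 1 month it was called lower (adjusted p = 0.000331, edgeR). At 3 months it was detected in 1 library of Cu and 1 of Al, and all other groups were at 0, so its fold is left out. The call was lost in the model with separate terms (adjusted p = 0.083, edgeR), after thinning to 70000 counts and without the libraries numbered 1 or 3. miR-17-5p was detected in 34, 15, 21 and 25 libraries at 1, 3, 6 and 12 months, miR-19b-3p in 18, 5, 9 and 10, miR-19a-3p in 8, 0, 4 and 8, and miR-18a-5p in 6, 2, 4 and 4. None of these 4 passed in the main time comparisons, with 1 mean per metal and month. Groups of zeros there left miR-18a-5p and miR-19a-3p no usable standard error. The model with separate terms called miR-19a-3p lower at 3 against 1 month (adjusted p = 0.000155, edgeR) and higher at 6 against 3 months (adjusted p = 0.00119, edgeR). At 3 against 1 month miR-19b-3p was called lower by DESeq2 (adjusted p = 0.000109), and miR-17-5p and miR-19b-3p were called lower after thinning (adjusted p = 0.0348 and 0.0434, edgeR). edgeR also called miR-19b-3p lower there without a low-count filter, without the libraries numbered 1 or 4, and without Fe or DU (adjusted p 0.00469 to 0.0458). miR-17-5p was called lower without the libraries numbered 4 (adjusted p = 0.00735, edgeR). At 12 against 1 month miR-19b-3p was called lower without a low-count filter (adjusted p = 0.0329, edgeR) and by DESeq2 (adjusted p = 0.00235). Fewer miRNAs of any kind were detected at 3 months (median 109), and the part of that in these counts was not tested beyond the alternatives given.

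**Figure D3:**
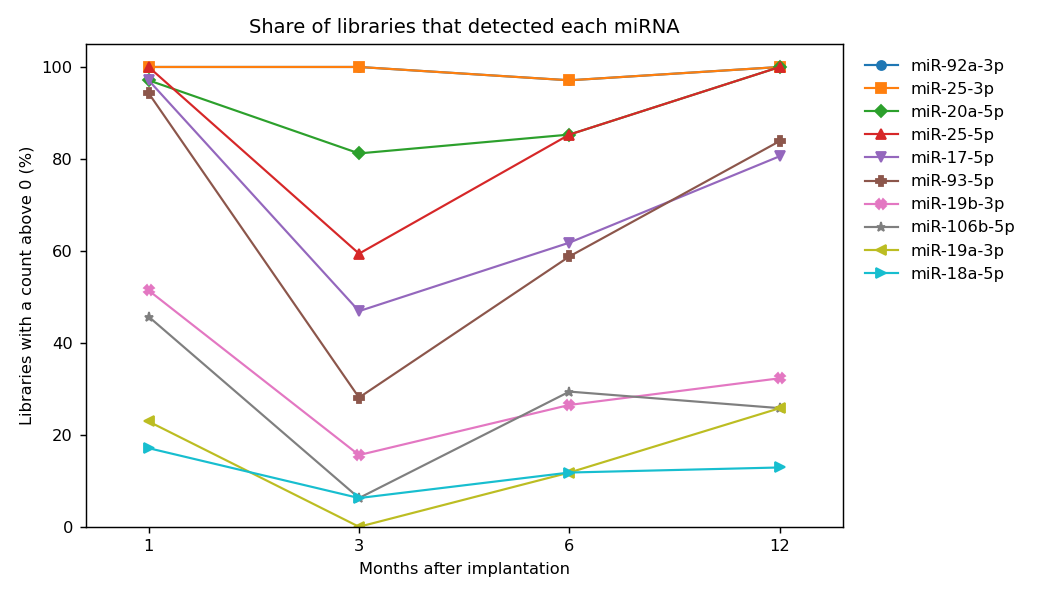
Share of libraries with a count above 0 for each of the 10 miRNAs (y axis, percent) at each month after implantation (35 libraries at 1, 32 at 3, 34 at 6 and 31 at 12 months). miR-92a-3p and miR-25-3p overlie each other near 100%, and the other 8 have their lowest share at 3 months.

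miR-92a-3p, the most abundant member, had medians of 7313, 11198, 6556 and 9609 CPM at 1, 3, 6 and 12 months and passed in none of the 4 comparisons (3 against 1 month log2 0.44 ± 0.25, adjusted p = 0.172, edgeR). With RLE in place of TMM scaling it was called at 3 against 1 month (log2 1.05, adjusted p = 0.000655, edgeR) and at 6 against 3 months (log2 -0.82, adjusted p = 0.0179, edgeR). DESeq2 called both, as did edgeR without the libraries numbered 1. The model with separate terms called miR-92a-3p at 6 against 3 months (log2 -0.63 ± 0.24, adjusted p = 0.0283, edgeR). miR-20a-5p had medians of 283, 592, 262 and 582 CPM. It was log2 -1.54 ± 0.52 at 6 against 3 months (adjusted p = 0.0212, edgeR), a call kept in 8 of 21 alternative settings, and log2 1.13 ± 0.51 at 3 against 1 month (adjusted p = 0.0634, edgeR). The latter difference was called with RLE scaling (log2 1.60, adjusted p = 0.0068, edgeR), with DESeq2 and the replicate block, in the model with separate terms (log2 1.26, adjusted p = 0.0186, edgeR), after thinning and without libraries that detected under 100 miRNAs. Over the same months miR-451-5p was log2 1.21 ± 0.33 higher at 3 than at 1 month (adjusted p = 0.00121, edgeR) and miR-23a-3p, a miRNA little affected by haemolysis, log2 -1.74 ± 0.33 (adjusted p = 5.04e-06, edgeR). The other red-cell miRNAs in the table were lower: miR-144-5p was called (log2 -2.26 ± 0.90, adjusted p = 0.0316, edgeR). miR-144-3p and miR-16-5p were not called (log2 -1.01 and -0.79). The platelet and myeloid miRNA miR-223-3p was log2 2.86 ± 0.37 higher (adjusted p = 3.08e-10, edgeR). Of the other platelet names, miR-199a-3p was higher (log2 1.24, adjusted p = 0.000437, edgeR). miR-126a-3p was lower and not called (log2 -1.06, adjusted p = 0.0581, edgeR). The part of red cells and platelets in the rise of miR-25-3p was not tested. In serum, fewer cells releasing a miRNA and less release per cell cannot be told apart.

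**Figure D4:**
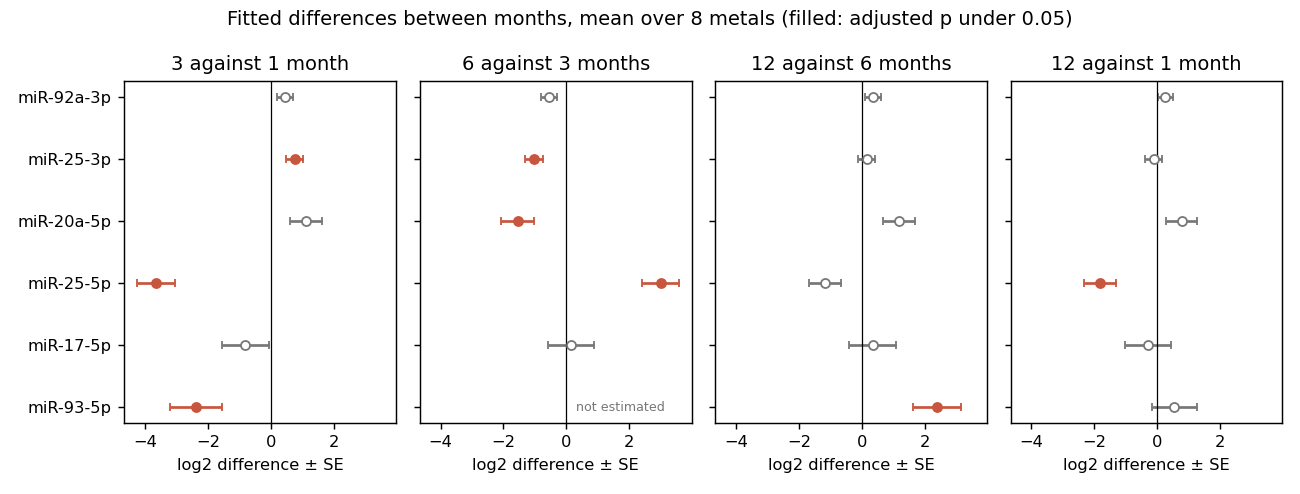
Fitted log2 differences between months with their SE (x axis) for the 6 members detected in over 80 libraries, as the mean over 8 metals. Filled points passed an adjusted p under 0.05 (edgeR), and in the first 2 panels miR-25-3p and miR-25-5p lie on opposite sides of 0.

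The design compares each metal with Ta at the same month. At single months no member passed in any of the 31 comparisons of a metal with Ta (0 of 271 member tests, edgeR quasi-likelihood test, Benjamini-Hochberg within each comparison). Over all miRNAs 0.407% of 7622 tests were called. At an unadjusted p under 0.05 stood 32 of the 271 member tests, 11.8%, beside 9.79% of all. DESeq2 called 12 member tests, beside 3.98% of all tests. Averaged over months 0 of 80 member tests passed (4 at an unadjusted p under 0.05), beside 0.422% of 2608 over all miRNAs, while DESeq2 called 7 (10.6% of all tests) and the model with separate terms 4 (6.9% of all). At single months DESeq2's calls were for miR-106b-5p, miR-25-5p, miR-19b-3p, miR-17-5p and miR-20a-5p.

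Among the members at single months, miR-25-5p at 12 months gave the smallest unadjusted p (0.00568, edgeR, for DU). Its 4 Ta libraries stood at 32.8, 72.3, 84.0 and 24.3 CPM. Those of W stood at 44.2, 64.5 and 18.6 CPM and those of Co at 15.2, 20.3, 50.1 and 69.8 CPM, which overlap Ta. All 4 libraries of Fe (151, 208, 155 and 522 CPM), of Cu (237, 294, 157 and 229 CPM), of Pb (363, 202, 203 and 280 CPM) and of DU (354, 381, 129 and 204 CPM) lay above every Ta library. Of the 242 miRNAs tested at 12 months, 10.3% lay so in Fe, 5.79% in Cu, 6.61% in Pb and 3.31% in DU, beside 4.13% in Al, 4.55% in W and 2.89% in Co. Al was mixed, at 501, 387, 87.6 and 50.6 CPM. The fitted differences from Ta were log2 2.28 ± 0.86 for Fe, 2.16 ± 0.85 for Cu, 2.33 ± 0.86 for Al, 2.41 ± 0.86 for Pb and 2.56 ± 0.87 for DU. None passed after adjustment (adjusted p 0.105 to 0.296, edgeR), whereas DESeq2 called Al, Pb and DU (adjusted p = 0.0421, 0.027 and 0.0279). The 5 comparisons share the same 4 Ta libraries.

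For miR-25-3p at 12 months the groups overlapped. Its median was 3910 CPM in Ta, and its fitted differences from Ta ran from log2 -0.48 ± 0.52 in DU to 0.71 ± 0.56 in W, with adjusted p of 0.635 or more (edgeR). The share of miR-25-5p among both strands was 0.855% to 2.05% in Ta, 5.23% to 13.3% in Fe, 5.59% to 10.9% in Cu, 4.82% to 11.9% in Pb and 10.3% to 17.3% in DU, with no overlap. It was 1.18% to 20.5% in Al, 0.219% to 2.45% in W and 0.498% to 3.14% in Co, which overlap Ta. An exact two-sided permutation test over libraries was chosen after the values were seen and run in all 31 comparisons of a metal with Ta. The smallest adjusted p was 0.111, so none passed. The smallest p this test can give is 0.0286 (0.1 for 3 against 3 libraries), and Fe, Cu, Pb and DU at 12 months stood at 0.0286. A pass after adjustment would need most of the 31 comparisons to reach that value, so the test cannot decide for single metals. At 1, 3 and 6 months the share lay below every Ta library in 1, 1 and 3 of 8 metals and above every Ta library in none.

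Beside these values at 12 months, another serum miRNA, miR-423-5p, stood at 540 to 2900 CPM in Ta, 1217 to 2227 in W and 1347 to 2313 in Co, against 3117 to 10964 in Fe, 2237 to 25063 in Cu, 3598 to 18033 in Al, 5126 to 5894 in Pb and 6144 to 11042 in DU. Totals of Fe, Cu, Al, Pb, DU and Co overlapped those of Ta, and those of W lay above them. They ran from 351094 to 1168200 counts in Ta, 1269637 to 1490019 in W and 408203 to 2225353 in Co, and from 288612 to 549799 in Fe, 232411 to 740656 in Cu, 214246 to 589967 in Al, 392498 to 704018 in Pb and 159861 to 1078901 in DU. The part of either in the difference of miR-25-5p was not tested.

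**Figure D5:**
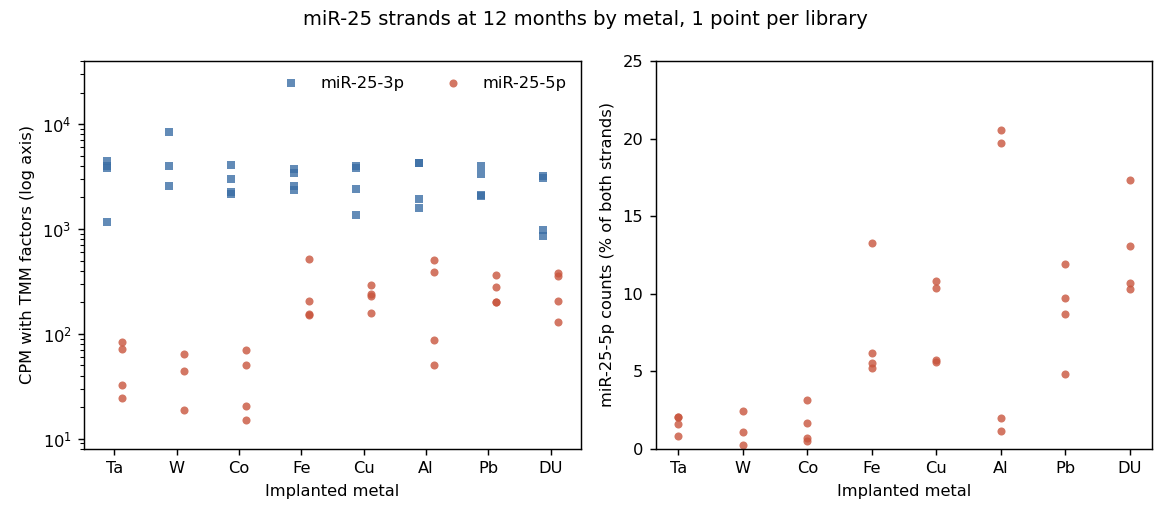
miR-25-3p and miR-25-5p in CPM (left, log axis) and the share of miR-25-5p in percent of both strands (right) at 12 months, 1 point per library, by implanted metal. The Ta, W and Co libraries lie at 15.2 to 84.0 CPM of miR-25-5p, and all libraries of Fe, Cu, Pb and DU lie at or above 129 CPM.

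Whether the difference from Ta changed between months was tested for each metal, and miR-25-5p in Co was the 1 member test of 80 to pass (adjusted p = 0.0476, edgeR), beside 0.92% of 2608 over all miRNAs and 1.23% in the comparison of Co. At 3 months the 4 Co libraries held 0 counts of miR-25-5p and 517, 857, 1250 and 2682 of miR-25-3p. The 3 Ta libraries held 163, 21 and 1239 counts of miR-25-5p (514, 63.5 and 369 CPM) and 1303, 2444 and 11678 of miR-25-3p. At 1, 6 and 12 months Co and Ta overlapped, with medians of 445 against 409, 250 against 567 and 35.2 against 52.6 CPM. The 4 Co libraries at 3 months detected 72 to 90 miRNAs and the Ta libraries 80, 144 and 194, and the part of that difference was not tested. The call was kept in 9 of 29 settings that left out a single library of Co or Ta (adjusted p 0.0392 to 0.219, edgeR). It was not made without libraries that detected under 100 miRNAs (adjusted p = 1, edgeR). That setting leaves out all 4 Co libraries at 3 months, so it cannot check the difference at that month. Averaged over months miR-25-5p was log2 -3.09 ± 0.88 in Co (adjusted p = 0.11, edgeR). That average includes the Co libraries at 0 at 3 months, so its size depends on the model. The model with separate terms gave log2 -1.14 ± 0.81 (adjusted p = 0.548, edgeR). DESeq2 called miR-25-5p lower in Co averaged over months (adjusted p = 8.94e-20) and at 3 months (adjusted p = 0.0118).

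The Pb libraries at 6 months differed widely among themselves. miR-92a-3p held 13298, 621, 245 and 0 counts in replicates 1 to 4, miR-25-3p held 3858, 329, 0 and 2, and miR-25-5p held 0, 0, 257 and 496. Replicates 3 and 4 held miR-25-5p with almost no miR-25-3p, a pattern seen in none of the other 130 libraries, where miR-25-3p had the more counts. These libraries detected 88, 70, 96 and 89 miRNAs, against 198, 223 and 168 in Ta. No member passed there (miR-92a-3p log2 -1.99 ± 1.04, adjusted p = 0.222, edgeR). Without the libraries numbered 1, miR-92a-3p (log2 -4.71, adjusted p = 0.0101, edgeR) and miR-20a-5p were called.

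At 1 month 4 of the 10 members tested stood at an unadjusted p under 0.05 in Pb against Ta, beside 48 of all 289 miRNAs. All 4 are encoded in the miR-17-92 cluster (miR-92a-3p and miR-17-5p also on chromosome X), with miR-92a-3p higher and miR-20a-5p, miR-17-5p and miR-18a-5p lower. The last 2 were not lower in Pb alone. At 1 month miR-17-5p had a fitted value below Ta in every metal, from log2 -0.46 in W to -2.17 in Al. miR-18a-5p was below Ta in all 8 comparisons. These comparisons share the same Ta libraries. miR-92a-3p stood at 14265, 4025, 7342 and 3167 CPM in Ta and at 22079, 7508, 12521 and 11399 CPM in Pb. miR-20a-5p stood at 1352, 201, 324 and 133 CPM in Ta and at 280, 0, 147 and 90.2 CPM in Pb. Groups overlapped for both, and the adjusted p was 0.297 for all 4 (edgeR). miR-18a-5p was detected in 1 Ta library and in no Pb library, and DESeq2 called miR-20a-5p and miR-17-5p (adjusted p = 0.0432 for each).

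The miRNAs most like each member over the 132 libraries, by Spearman correlation of log2 CPM centred on month means, were mostly from outside the family. The values are descriptions over libraries that differ in depth. miR-92a-3p was nearest to miR-128-3p (rho 0.634), let-7b-5p and miR-223-3p. miR-25-3p was nearest to miR-30c-5p (rho 0.502), and miR-25-5p to miR-140-3p, miR-423-3p and miR-877 (rho 0.576, 0.573 and 0.527). miR-20a-5p was nearest to miR-98-5p (rho 0.495), miR-93-5p to miR-107-3p (rho 0.432) and miR-17-5p to miR-93-5p (rho 0.358). The 2 miR-25 strands had a rho of -0.08, while miR-92a-3p and miR-25-3p, which share a seed and not a locus, had a rho of 0.32. With the red-cell miRNA miR-451-5p the rho was 0.374 for miR-25-3p, 0.138 for miR-92a-3p and -0.01 for miR-25-5p. The other red-cell miRNAs did not give the same order. In that order of members the rho was 0.357, 0.185 and 0.28 with miR-16-5p. It was 0.165, -0.125 and 0.199 with miR-144-3p, and 0.08, -0.07 and 0.128 with miR-144-5p.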

How the data were processed

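The authors deposited raw counts of mature miRNAs per library, as 1 table of 471 miRNAs by 138 libraries with no per-sample column left unused. Per the labels' protocols, libraries were made from total serum RNA with a Norgen Biotek small RNA kit and sequenced on a NextSeq 500. Per the submitters' processing notes the assembly was Rnor_6.0. Which aligner and counter were used is not given in the sources used here. GRCr8 coordinates belong to the RefSeq sequences only.

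Libraries under 20000 counts were left out. Counts were tested in R 4.3.3 with edgeR 4.0.16 (quasi-likelihood F test, TMM factors, filterByExpr with a minimum count of 10 and a minimum total of 15, 1 mean per metal and month), with Benjamini-Hochberg adjustment within each comparison over all miRNAs tested and a threshold of 0.05. Comparisons at single months used that month's libraries. CPM used TMM factors, and correlations a prior count of 2. DESeq2 1.42.0 was an alternative, as were RLE scaling, no filter, all libraries, a replicate block, leaving out replicates or metals, thinning to 70000 counts and Ta alone. Scripts were tested on simulated data.

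The members and lists were chosen with earlier results of these data known. By rule, all 10 members are named, with the 3 most alike miRNAs for members detected in at least 50% of libraries, and full statistics for members past the threshold or with the smallest p. Counts limit precision, and PCR copies without molecular identifiers are not independent molecules.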

Additional observations from a re-analysis of the deposited data

Results flagged for a closer look

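Of 80 groups of 4 libraries tested for a library far from the rest, 8 held one, where chance gives about 5%. For miR-25-5p these were Cu replicate 2 at 3 months (54.5 CPM against 0 in the other 3) and Fe replicate 4 at 12 months (522 CPM against 151 to 208). For miR-25-3p it was Cu replicate 1 at 6 months (651 CPM against 2125 to 2257). For miR-92a-3p they were Cu replicate 1 at 1 month (19701 CPM against 5433 to 6929), Fe replicate 2 at 6 months (16343 CPM against 6155 to 7484), Al replicate 4 at 6 months (10357 CPM against 4992 to 5616), Pb replicate 1 at 6 months (14024 CPM against 0 to 1404) and Ta replicate 1 at 12 months (5672 CPM against 9272 to 9955).

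In data outside the comparisons, the left-out Co library of 1 month held 19 counts of miR-93-5p, 1556 CPM of its 12213 counts, above the 119 CPM that was the highest Ta value at that month. The difference of miR-25-5p between Co and Ta changed between months by the test of that change (adjusted p = 0.0476, edgeR).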

How the results depend on the processing

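The numbers of members called depended on the tool and the samples. With DESeq2 they were 7 (3 against 1 month), 6 (6 against 3), 3 (12 against 6), 3 (12 against 1), 12 (metals against Ta at single months), 7 (averaged over months) and 2 (change between months), beside 52.1%, 36.8%, 23.3%, 18.4%, 3.98%, 10.6% and 1.23% of all miRNAs tested. In Ta alone all 4 time comparisons called 0, beside 2.51%, 0%, 1.51% and 1.51% of all (3 against 1, 6 against 3, 12 against 6 and 12 against 1 month). The model with separate terms for metal and month, added after the data were seen, called 5 at 6 against 3 months, 0 at 12 against 6, 0 at 12 against 1 and 4 averaged over months, beside 38%, 9.82%, 12.3% and 6.9% of all. Thinning to 70000 counts gave 0 at 12 against 6 and 0 at 12 against 1 month, beside 6.87% and 9.01% of all. Without a low-count filter 2 passed at 12 against 1 month (7.86% of all) and 0 in the change between months (1.57% of all). RLE scaling also gave 0 in that change (0.729% of all). Without libraries detecting under 100 miRNAs 1 passed at 6 against 3 months, beside 4.82% of all. Leaving out Co gave 0 at 12 against 1 month (9.49% of all), and leaving out Al or Pb 0 at 12 against 6 (7.89% and 4.66% of all). Leaving out replicates gave 2 to 5 calls at 3 against 1 month (31.2% to 43.6% of all) and 1 to 4 at 6 against 3 (11% to 19.3%). It gave 0 to 2 at 12 against 6 (3.53% to 7.42%) and 0 to 1 at 12 against 1 (5.59% to 8.9%). For metals at single months it gave 0 to 2 (0.0878% to 0.218%), and for the change between months 0 to 2 (0.0735% to 0.631%). The cause was not tested. miR-93-5p at 3 against 1 month turned to log2 0.47 in Ta alone. RLE in place of TMM moved the median of all miRNAs by log2 0.40 at 3 against 1 month and 0.18 at 12 against 1, where 56.5% of calls were higher against 27.3% with TMM (12 against 6 months 71.4% against 84%). The 5p share of miR-25 differed between 12 and 6 months by -3.44 percentage points without libraries detecting under 100 miRNAs (p = 0.0462, permutation test). Without centring on months, 2 of 6 members kept their most alike miRNA. Levels moved by less than 1 SD.

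Replicate numbers did not pair the libraries: in 1 of 31 comparisons did every same-numbered pair correlate above 0.1. With the replicate block 5 members were called at 3 against 1 month, 3 at 6 against 3, 1 at 12 against 6 and 1 at 12 against 1. These stood beside 42.3%, 18.7%, 7.36% and 10.7% of all miRNAs tested. The block gave 0 at single months (0.38% of all), 0 averaged over months (0.23%) and 1 in the change between months (0.805%). That 1 was miR-25-5p in Co (adjusted p = 0.039, edgeR). Leaving out single libraries for the comparisons of a metal with Ta at single or averaged months was not run, because no member was called.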
